A study of Danio rerio with 2 samples.

Results

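Macrophages made up 57 of the 7931 cells kept from a pair of droplet-based scRNA-seq libraries of the embryonic zebrafish head. The kept cells were barcodes with at least 1800 UMIs (unique molecular identifiers, each standing for 1 captured transcript), at most 3000 (DMSO) or 3500 (YM) genes and less than 5% of UMIs from mitochondrial genes. Macrophages were chosen by measured values, namely those kept cells whose raw UMIs of *mpeg1.1*, *mfap4* and *lygl1* summed to at least 3, *lcp1* and *coro1a* gave at least 1 and *mpx*, a neutrophil peroxidase, gave at most 1. This rule found 29 macrophages among 3555 DMSO cells, a share of 0.816% (exact binomial 95% interval 0.547% to 1.17%). Among 4376 YM cells it found 28, a share of 0.640% (0.426% to 0.923%), and these intervals overlapped.

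Both libraries came from *Tg(sox10:mRFP);Tg(fli1a:EGFP)* embryos, in which the *sox10* promoter drives mRFP in neural crest cells and the *fli1a* promoter drives EGFP in crest mesenchyme, endothelium and some blood cells. For each condition, 70 embryos were treated between 16 and 36 hours post-fertilization (hpf) with 100 µM YM-254890 (YM), an inhibitor of Gq/11 proteins, or with its solvent DMSO. The heads were pooled after 10 embryos of each condition had been put to other use. Cells positive for EGFP and mRFP were sorted at 36 hpf, and 8000 cells per condition were submitted. With 1 library of pooled heads per condition, treatment and library cannot be told apart, so no difference between YM and DMSO was tested, and all intervals cover counting error only.

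Macrophages are phagocytes of the innate immune system that engulf dying cells and microbes and digest them in lysosomes. In the early zebrafish embryo they arise on the yolk from primitive myelopoiesis and enter the head mesenchyme and brain, where some become microglia. The transcription factors PU.1 and Irf8 and the receptor Csf1r set and maintain the lineage. No macrophage barcode occurred in both libraries, and 5 barcodes did among all kept cells.

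The macrophages held 238167 UMIs in DMSO and 276067 in YM. A DMSO macrophage had from 3741 to 14153 UMIs, with a median of 8133, and a YM macrophage had from 6300 to 15930, with a median of 9433.5. The median number of genes per cell was 1980 in DMSO and 2108 in YM. Kept cells other than macrophages and neutrophils had medians of 5870 and 6543 UMIs, so a gene was more easily detected in a macrophage than in one of them. Free RNA, estimated from haemoglobin UMIs and the profile of barcodes with at most 100 UMIs, amounted to 0.881% and 0.627% of macrophage UMIs in DMSO and YM.

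The values that chose the cells left a wide margin in DMSO and a narrower one in YM. In DMSO, the lowest marker sums were 19, 22 and 23, the median was 38 and the highest was 122. In YM, the lowest were 4, 6 and 11, the median was 29 and the highest was 153. Just outside the rule, 17 DMSO and 15 YM kept cells met the *lcp1*, *coro1a* and *mpx* conditions but not the marker minimum, and of these only 1 YM cell had a marker UMI at all, a sum of 1. A further 3 DMSO cells and 0 YM cells reached the marker minimum and failed on *mpx*. The YM cell with a sum of 4 had 1 *mpeg1.1*, 0 *mfap4* and 3 *lygl1* UMIs, but 100 UMIs of a second MFAP4 gene that the rule did not use.

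Other macrophage genes, not used by the rule, were checked in the same cells. Of 18 such markers that are not shared with leucocytes at large, each macrophage had a UMI of at least 5, with a median of 9 in DMSO and 10 in YM and a highest value of 12 in both. Neutrophils (31 cells in DMSO and 21 in YM with at least 2 *mpx* UMIs, at least 3 of *mpx*, *lyz* and *npsn* and at least 1 of *lcp1* and *coro1a*) had at most 2 of these 18 markers. No other kept cell had 5 or more. Over all 26 outside marker features the margin was narrow, since macrophages had at least 10 in DMSO and 9 in YM and neutrophils up to 9 and 8. Counted this way, 28 DMSO and 17 YM kept cells that are not macrophages had 5 or more. The 18 markers set the same cells apart, the YM cells with the lowest marker sums included. The lists were chosen with earlier results of these data known, so this is a description.

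**Figure D1:**
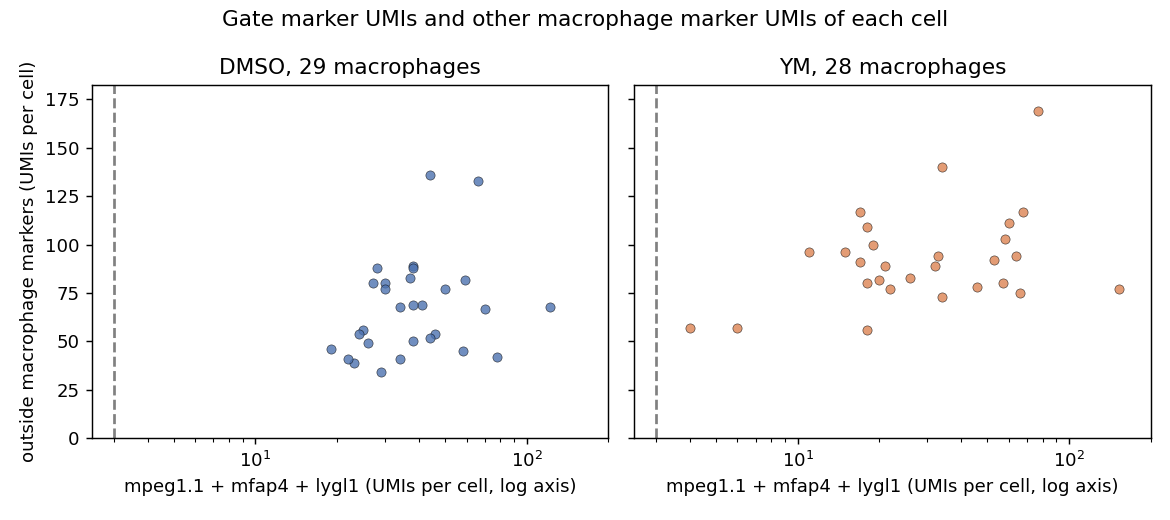
Each point is 1 macrophage, with the UMIs of the 3 marker genes of the rule on the x axis (log axis, dashed line at the minimum of 3). The y axis gives the UMIs of all 26 outside marker features, those shared with other leucocytes included, for DMSO (left) and YM (right). The YM cells with marker sums of 4 and 6 each have 57 UMIs of the other markers, above the lowest DMSO value of 34.

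Markers of the labelled cell type were nearly absent from these cells. The libraries are labelled as cranial neural crest cells of the facial mesenchyme, and 18 crest mesenchyme genes such as *twist1a*, *prrx1a* and *dlx2a* summed to 63.0 UMIs per 1000000 UMIs of these cells (CPM) in DMSO macrophages and 47.1 CPM in YM macrophages. All other kept cells had 4199 and 4278 CPM of the same genes. In DMSO, all 15 crest UMIs lay in 1 macrophage of 14153 UMIs, and in YM, 6 of 13 lay in 1 macrophage of 15365 UMIs. The crest gene *sox10*, listed here with the pigment cell markers, had 0 UMIs in every macrophage. Its level in other kept cells is not given here, so this 0 alone does not set macrophages apart from crest mesenchyme.

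The *eGFP* transgene was also low in macrophages. Still, it was found in 15 of 29 DMSO and 20 of 28 YM cells, with a median of 1 UMI in both, whereas crest markers were found in 1 and 7. In DMSO macrophages, *eGFP* had 76 UMIs (319 CPM, exact Poisson 95% interval 251 to 399), of which 48 lay in the cell with 15 crest UMIs. YM macrophages held 69 *eGFP* UMIs (250 CPM, 194 to 316), of which 22 lay in the cell with 6 crest UMIs. Kept cells other than macrophages and neutrophils had 8012 and 7110 CPM, and neutrophils had 707 and 672 CPM. Without those 2 macrophages, the *eGFP* level was 125 CPM in DMSO and 180 CPM in YM. The *mRFP* transgene gave 0 UMIs in the 57 macrophages, but it gave a UMI in only 0.486% and 1.32% of the other kept cells as well, so this feature does not separate cell types here. Whether these UMIs came from doublets, free RNA or the macrophages themselves was not tested.

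Markers of other blood and tissue types were few, though not all were at 0. The 16 neutrophil marker features summed to 420 CPM in DMSO macrophages and 362 CPM in YM macrophages, against 146144 and 158368 CPM in neutrophils. No macrophage had more than 8 neutrophil marker UMIs. Haemoglobin genes gave 5 UMIs in each library. The 15 endothelial features gave 12 and 14 UMIs, in 9 and 8 macrophages. Of these features 10 were at 0 in both libraries, *kdrl* and *cdh5* among them, and 13 had at most 3 UMIs over both. The remaining features carried most of the UMIs. The pigment cell list gave 11 and 26 UMIs, in 6 and 15 macrophages, with *dct* at 0, and its only measured member was *tfec*, which is also among the myeloid transcription factors. The epidermal list gave 50 and 60 UMIs (210 and 217 CPM, against 914 and 706 CPM in other kept cells), found in 19 of 29 and 25 of 28 macrophages. Of these UMIs 47 and 52 were of the keratin gene *krt8*, while *epcam*, *tp63* and *krt5* were at 0. Early blood progenitor genes were low, with 1 and 5 UMIs of *myb* in DMSO and YM.

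Across the 2433 genes with at least 20 UMIs over both libraries of macrophages, 533 (21.9%) were at least 4-fold higher in macrophages than in all other kept cells, neutrophils included, in both libraries. Since the rule chose the cells by their expression, these differences are a description. The 10 genes with the highest ratios included genes for receptors, secreted proteins and a lysosomal enzyme. *mrc1b*, a mannose receptor gene, had 87 UMIs in DMSO and 93 in YM macrophages and 0 in any other kept cell, at least 2661-fold and 3378-fold higher against a floor of 3 UMIs over all other cells. *marco*, a scavenger receptor gene, had 27 and 52 UMIs and was likewise at 0 outside macrophages. *havcr1*, which belongs to a family of phosphatidylserine receptors that bind dying cells, stood at 714 CPM in both libraries (611 to 830 in DMSO and 617 to 820.5 in YM) and at most 0.0915 CPM in all other kept cells.

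Several of the leading genes have close relatives in the genome. The MFAP4 feature ENSDARG00000088745 had 1535 UMIs in DMSO (6445 CPM) and 2060 in YM (7462 CPM), against 0.458 and 0.465 CPM in all other kept cells. *mfap4* itself, the gene of the rule, had 749 and 599 UMIs (3145 and 2170 CPM). Both encode fibrinogen-related proteins, and in RefSeq (GRCz12tu) the genes of this family lie side by side, as do *ctss2.1* and *ctss2.2*. Reads shared between such copies could have been split or dropped by the counting, so their separate levels are uncertain.

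The chemokine gene *ccl34a.4* had 235 UMIs in DMSO and 300 in YM macrophages, 987 and 1087 CPM, and at most 0.07 CPM in the other cells. *lygl1*, which encodes a g-type lysozyme, had 333 and 296 UMIs (1398 and 1072 CPM). *mpeg1.1*, which encodes the pore-forming protein perforin-2, had 136 and 172 UMIs (571 and 623 CPM). *ctss2.2*, a cathepsin S gene, had 62 and 143 UMIs. The remaining leading genes, *si:dkey-5n18.1*, *si:ch211-194m7.3* and *si:ch211-147m6.1*, have no descriptive name in the files, and each had between 266 and 635 UMIs per library. *lgals2a*, a galectin gene, had 388 and 476 UMIs and was found in all 57 macrophages. Apart from *si:ch211-147m6.1*, at 3.54 CPM in DMSO, these genes had 0 UMIs in neutrophils.

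**Figure D2:**
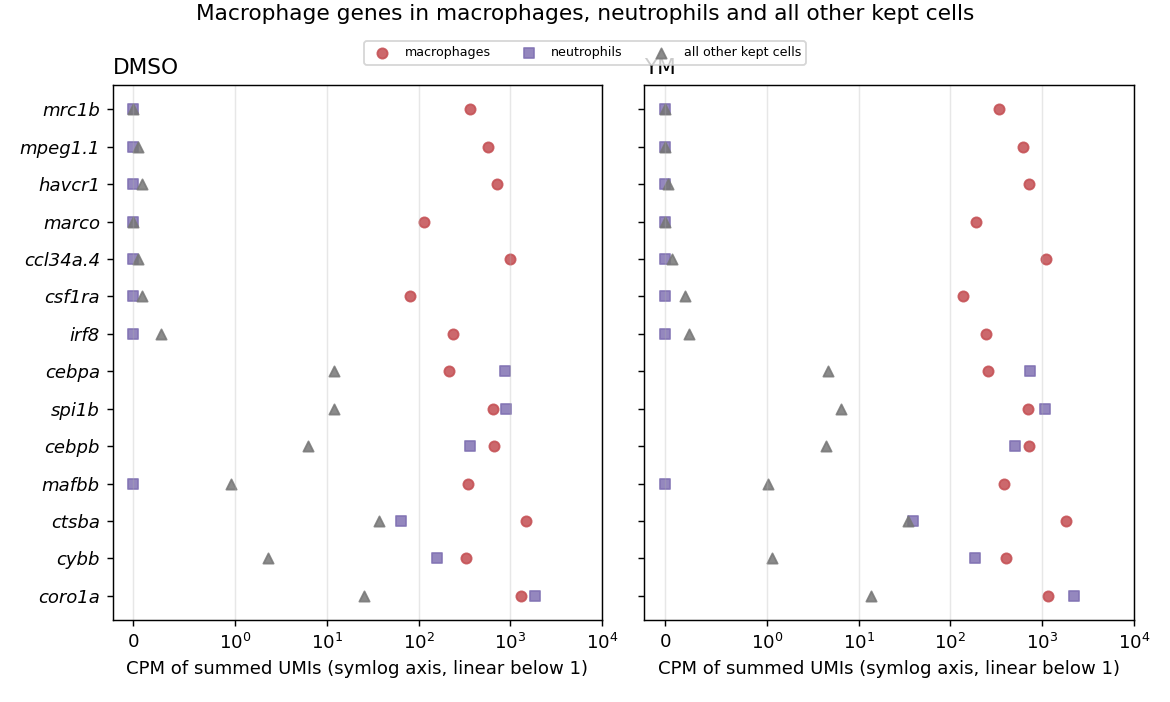
The x axis gives the CPM of UMIs summed over macrophages (circles), neutrophils (squares) and all other kept cells, neutrophils included (triangles), for 14 genes in DMSO (left) and YM (right), on an axis that is linear below 1 CPM and logarithmic above. From *mrc1b* to *irf8* the macrophages stand at 79.8 CPM or more and neutrophils at 0, whereas *spi1b* and *coro1a* are higher in neutrophils than in macrophages.

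Transcription factors of the myeloid lineage were present in most cells. Of 11 with at least 20 UMIs, 10 were at least 4-fold higher than in other kept cells in both libraries, beside 21.9% of all genes. *spi1b*, which encodes PU.1, had 155 and 192 UMIs (651 and 696 CPM), and *irf8*, needed in zebrafish for macrophage rather than neutrophil fate, had 56 and 67 (235 and 243 CPM). The large Maf genes *mafbb* (82 and 107 UMIs) and *mafba* (57 and 86) and *irf8* had 0 UMIs in neutrophils of both libraries. *cebpb* (659 and 714 CPM) was also found in neutrophils at 364 and 509 CPM, and *cebpa* (214 and 257 CPM) was higher there, at 866 and 739 CPM. Thus *irf8* and the Maf genes, but not *spi1b*, *cebpb* or *cebpa*, distinguished macrophages from neutrophils.

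Among receptors for growth factors and cytokines, 5 of 19 had at least 20 UMIs, and all 5 were past 4-fold against other cells, beside 21.9% of all genes. Past 4-fold against neutrophils were 2 of the 5, beside 8.01% of all genes. These 5 were chosen by their UMIs in macrophages. Summed over all 19 features, macrophages had 390 and 529 CPM in DMSO and YM, against 1064 and 1808 CPM in neutrophils. The zebrafish has a pair of Csf1 receptor genes, and *csf1ra* had 19 and 38 UMIs in DMSO and YM, found in 13 of 29 and 20 of 28 cells. *csf1rb* had 14 and 19 UMIs. Their ligand genes *csf1a*, *csf1b* and *il34* had 0 UMIs in macrophages. Of the chemokine and chemoattractant receptors, *cxcr3.2* had 53 and 54 UMIs (223 and 196 CPM), followed by *c5ar1*, *cmklr1*, *ccr9a* and *lpar5a* with 10 to 18 UMIs per library. *cxcr1* and *cxcr2*, which bind Cxcl8 in neutrophils, had none.

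Of 28 chemokine, cytokine and growth factor features, 3 reached 20 UMIs, beside 2433 of all 25434 features. With so few genes, a count of 3 is near that share. Together the 28 gave 1281 and 1398 CPM in DMSO and YM macrophages, against 182 and 193 CPM in other kept cells and 91.9 and 61.6 CPM in neutrophils. Besides *ccl34a.4*, the list of 28 chemokines, cytokines and growth factors held *il1b* with 26 and 35 UMIs (109 and 127 CPM) and *ccl34b.1* with 21 and 10. *tnfa* had 0 and 1 UMIs, *il10* had 1 and 0, and *il6*, *il12ba* and *vegfaa* had 0. Neither *nos2a* nor *nos2b*, the inducible nitric oxide synthase genes, had a UMI. Of 17 interferon response genes 12 were at 0 in both libraries, *isg15*, *rsad2* and *mxa* among them, and none reached 20 UMIs. With so few genes, 0 at 20 UMIs or more is near the share of all features. The share of all features at 0 is not given here. Summed, the 17 genes gave 17 UMIs in DMSO and 31 in YM (71.4 and 112 CPM), found in 14 and 19 macrophages. Other kept cells had 12.3 and 12.4 CPM of these genes, and neutrophils had 134 and 196 CPM. At this number of cells, a count of 0 was taken to allow up to 3 UMIs per library, or 12.6 CPM in DMSO and 10.9 CPM in YM. The exact Poisson upper limits of a count of 0 were 15.5 and 13.4 CPM, so low levels could have been missed.

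None of 17 antigen presentation features reached 20 UMIs, beside 2433 of all 25434 features. With so few genes, a count of 0 is near that share. *cd74a* and *cd74b*, which encode the invariant chain of MHC class II, had 0. Together the 17 gave 16 and 21 UMIs (67.2 and 76.1 CPM), in 11 and 12 macrophages, against 26.8 and 23.4 CPM in other kept cells. The complement genes *c1qa*, *c1qb* and *c1qc*, markers of mature macrophages and microglia, had 2, 13 and 8 UMIs in DMSO and 0, 5 and 9 in YM. *apoeb* and *apoc1*, which mark microglia and other macrophages of older zebrafish, had 0 UMIs in both libraries.

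Genes of digestion, oxidative burst and uptake were next. Of 43 lysosomal features 26 were measured, and 22 of these were at least 4-fold higher than in other kept cells, beside 21.9% of all genes. Compared with neutrophils, 13 of the 26 were at least 4-fold higher and 1 at least 4-fold lower, beside 8.01% and 0.904% of all genes. *ctsba*, a cathepsin B gene, had 350 and 503 UMIs (1470 and 1822 CPM, against 36.9 and 34.2 CPM in other cells). *psap*, which encodes the precursor of the saposins, stood at 655 and 750 CPM, *ctsd* at 558 and 630 CPM and *ctsc* at 307 and 500 CPM. In neutrophils these 4 genes lay between 33.6 and 89.6 CPM, whereas *cd63*, a lysosomal tetraspanin gene, was higher there (1849 and 1635 CPM) than in macrophages (903 and 898 CPM).

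Of 17 features of oxidative burst and antimicrobial defence 9 were measured, and all 9 were past 4-fold against other kept cells, beside 21.9% of all genes. Only 2 of the 9 were at least 4-fold higher than in neutrophils, beside 8.01% of all genes. Their median log2 ratio of macrophages to neutrophils was 0.23 in DMSO and 0.16 in YM, beside 0.57 and 0.65 over all genes. The 9 were chosen by their UMIs in macrophages, which leaves out genes high in neutrophils alone. Summed over all 17 features, macrophages had 3896 and 3716 CPM, against 115746 and 124910 CPM in neutrophils. Of the NADPH oxidase, *cybb*, the catalytic subunit gene, had 78 and 111 UMIs (328 and 402 CPM), and *rac2*, a GTPase gene of the complex, had 184 and 231 (773 and 837 CPM). Of 24 phagocytosis and scavenger receptor features 7 were measured, and 6 of these were past 4-fold against other kept cells, beside the same 21.9%. Compared with neutrophils, 3 of the 7 were at least 4-fold higher and 1 at least 4-fold lower, beside 8.01% and 0.904% of all genes. At most 3 UMIs were found for 14 features. Besides *mrc1b*, *havcr1* and *marco*, the measured genes included *itgb2*, the integrin chain shared by leucocytes (193 and 178 CPM), and *elmo1*, a gene of the engulfment machinery (256 and 214 CPM). *mertka* and *timd4*, other receptors for dying cells, had 7 and 3 UMIs and 1 and 2 UMIs.

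Genes of the actin cytoskeleton formed the broadest group. Of 31 measured, 26 were past 4-fold in macrophages against other kept cells, beside 21.9% of all genes. The thymosin gene *tmsb4x* stood at 21518 and 23701 CPM, against 2345 and 2109 CPM in the other cells. *pfn1*, a profilin gene, stood at 7184 and 6984 CPM, and *cotl1*, which encodes a coactosin-like protein, at 3233 and 3333 CPM. Neutrophils had these genes as well, with *pfn1* at 11266 and 11627 CPM. No actin gene was at least 4-fold higher in macrophages than in neutrophils, and 2 of the 31 were at least 4-fold lower in both libraries. Of all genes, 8.01% were past 4-fold in macrophages against neutrophils and 0.904% in the opposite direction, in both libraries.

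All 6 measured genes of pattern recognition and innate signalling were past 4-fold against other kept cells, beside 21.9% of all genes. Only 1 of the 6 was past 4-fold against neutrophils, beside 8.01% of all genes. Among the 6 were *pycard*, the inflammasome adaptor gene (483 and 536 CPM), and *syk*, a kinase gene of Fc and lectin receptor signalling (151 and 130 CPM). Of 5 measured lipid genes 4 were past 4-fold against other kept cells and 1 against neutrophils, beside the same shares. The 4 included *npc2*, a lysosomal cholesterol carrier gene (193 and 254 CPM). *fabp3*, a fatty acid binding protein gene, was lower in macrophages (193 and 290 CPM) than in other kept cells (1095 and 1206 CPM).

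For iron and haem, *hmox1a*, which encodes the haem-degrading oxygenase, had 56 and 80 UMIs (235 and 290 CPM), held by 10 of 29 and 10 of 28 cells. *slc40a1*, the iron exporter ferroportin, had 18 and 54. *fth1a*, a ferritin gene, was lower in macrophages (311 and 221 CPM) than in other kept cells (628 and 651 CPM). This does not cover other ferritin features, such as *fthl27* (ENSDARG00000031776), which had at least 100 UMIs over both libraries of macrophages.

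Few UMIs were counted in these cells for the Gq/11 alpha subunits, the family that holds the targets of the drug. The paper expects YM to spare the G15 members of this family. The 9 Gq/11 alpha subunit features gave 2 UMIs in DMSO macrophages (8.40 CPM, 1.02 to 30.3) and 3 in YM macrophages (10.9 CPM, 2.24 to 31.8). All other kept cells had 21.0 and 21.9 CPM, within the macrophage intervals, so no difference was detectable at this depth. Of 9 measured genes of phosphoinositide and Gq/11 signalling, 4 were past 4-fold against other kept cells, beside 21.9% of all genes. Past 4-fold against neutrophils were 0 of the 9, beside 8.01% of all genes. Between treatments 0 of the 9 were past 2-fold, beside 2.84% of all genes higher and 5.01% lower in YM. With so few genes, a count of 0 is near those shares and says nothing about an effect of YM. G protein subunit genes of other classes were measured more deeply, with *gnai2a* at 65 and 101 UMIs and *gnb1a* at 81 and 121. *rgs2*, whose protein accelerates GTP hydrolysis by Gq in mammals, had 36 and 41 UMIs (151 and 149 CPM), against 2.75 and 0.665 CPM in other kept cells.

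Macrophages were compared between treatments gene by gene. Of the 2433 genes, 69 (2.84%) were at least 2-fold higher and 122 (5.01%) at least 2-fold lower in YM, with a median log2 ratio of YM to DMSO of -0.08 over all genes. The lower and upper quartiles lay at -0.38 and 0.22. Of all 26 outside marker features, those shared with other leucocytes included, 18 had at least 20 UMIs. None of these 18 was past 2-fold, and with so few genes a count of 0 is near the shares of all genes. *ctss2.2* was the nearest, with a log2 ratio of 0.99 (exact conditional 95% interval 0.55 to 1.45), and it ranged from 0.79 to 1.12 over the alternatives, so that some put it past 2-fold. The median of the 18 was 0.12. *irf8*, *havcr1* and *fcer1gl*, an Fc receptor adaptor gene, had log2 ratios of 0.05, 0.00 and 0.02.

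The marker genes of the rule were mostly as high in YM as in DMSO. The log2 ratio was 0.13 for *mpeg1.1* (-0.21 to 0.46), -0.02 for *lcp1* (-0.29 to 0.24) and -0.15 for *coro1a* (-0.38 to 0.08). *lygl1* was lower in YM, at -0.38 (-0.61 to -0.15), and *mfap4* at -0.54 (-0.69 to -0.38). *mfap4* ranged from 7 to 93 UMIs per cell in DMSO, with a median of 17, and from 0 to 138 in YM, with a median of 12. The cells overlapped widely, and 1 YM cell with 138 UMIs held 23.0% of its library's total. Without the highest cell of each library, the log2 ratio of *mfap4* was -0.73. These genes chose the cells, so their ratios are descriptions only.

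**Figure D3:**
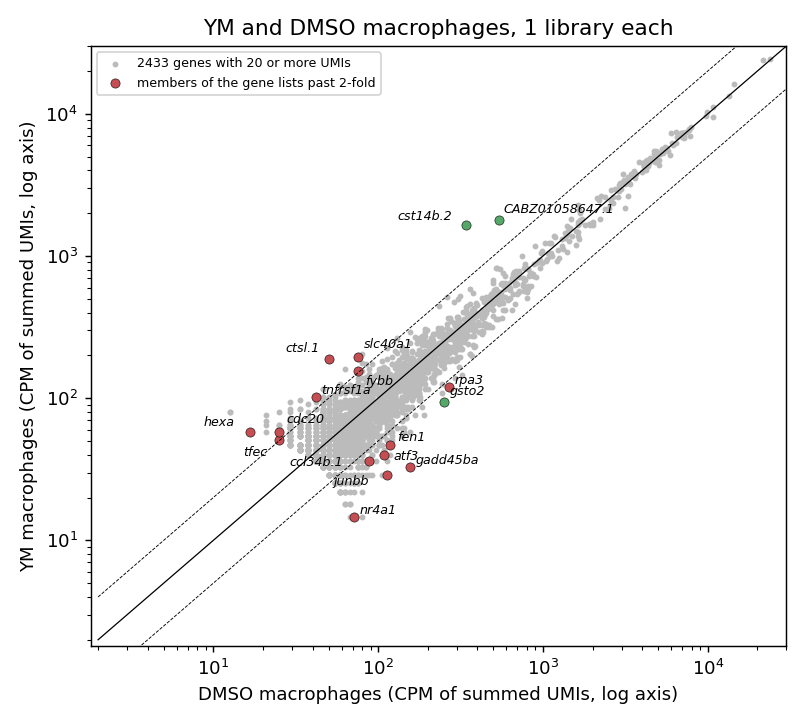
Each point is 1 of 2433 genes, with its CPM over DMSO macrophages on the x axis and over YM macrophages on the y axis (log axes, solid line at equality, dashed lines at 2-fold). The 14 members of the gene lists past 2-fold are named (dark red), as are *cst14b.2*, *CABZ01058647.1* and *gsto2* (green), the extremes whose UMIs lay mostly in a few cells.

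Immediate early and stress genes included 4 of the 14 list members past 2-fold, all lower in YM. They were 4 of 16 measured, beside 5.01% of all genes, and 0 were past 2-fold higher. The median log2 ratio of the list was -0.32. *nr4a1*, a nuclear receptor gene, had 17 UMIs in 7 of 29 DMSO cells and 4 UMIs in 3 of 28 YM cells, a log2 ratio of -2.30 (-4.33 to -0.68). *gadd45ba*, a growth arrest gene, had 37 UMIs in 13 DMSO cells and 9 in 8 YM cells (-2.25, -3.49 to -1.18). *junbb*, an AP-1 gene, had 27 UMIs in 17 cells and 8 in 8 cells (-1.97, -3.32 to -0.79). *atf3*, a stress-induced transcription factor gene, had 26 UMIs in 12 cells and 11 in 11 cells (-1.45, -2.62 to -0.39).

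The highest DMSO cell held 5 of the 17 *nr4a1* UMIs, 9 of the 37 of *gadd45ba*, 3 of the 27 of *junbb* and 5 of the 26 of *atf3*. Without the highest cell of each library their log2 ratios were -2.82, -2.23, -1.997 and -1.29. With cells thinned to 1800 UMIs, *atf3* stood at -0.95 and the other 3 stayed past 2-fold. The median mitochondrial share of UMIs was 2.37% in DMSO and 1.95% in YM macrophages, and its part in these ratios was not tested. In all other kept cells, the YM to DMSO log2 ratios were -0.55 for *nr4a1*, -0.08 for *gadd45ba*, 0.29 for *junbb* and 0.74 for *atf3*, and their difference from macrophages was not tested. The more deeply counted members of the list lay closer to equality in macrophages. *fosab* had 84 and 75 UMIs (-0.38, -0.85 to 0.09), *egr1* had 74 and 65 (-0.40, -0.90 to 0.10), *ier2a* had 61 and 71 (0.01) and *mcl1a*, which encodes a survival protein, had 100 and 112 (-0.05).

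Lysosomal genes had a median log2 ratio of 0.20, and 2 of 26 were past 2-fold, both higher in YM, beside 2.84% of all genes. With so few genes, a count of 2 is near that share. *ctsl.1*, a cathepsin L gene, had 12 UMIs in 9 of 29 DMSO cells and 52 UMIs in 19 of 28 YM cells, a log2 ratio of 1.90 (0.98 to 2.94). Its highest cell held 3 UMIs in DMSO and 7 in YM, and with cells thinned to 1800 UMIs it was found in 2 and 7 cells. *hexa*, the hexosaminidase A gene, had 4 and 16 UMIs (1.79, 0.15 to 3.83), and its log2 ratio with cells thinned was 0.47. Below 2-fold, *ctss2.1* stood at 0.65 (0.33 to 0.97), *ctsc* at 0.71 (0.29 to 1.14) and *ctsba* at 0.31 (0.11 to 0.51). *cd63*, *psap* and *ctsd* lay between -0.01 and 0.20 with intervals that held 0.

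Higher in YM were also *slc40a1* at 1.37 (0.58 to 2.23), found in 12 of 29 and 17 of 28 cells, and *tnfrsf1a*, a receptor gene for tumour necrosis factor, at 1.27 (0.19 to 2.48), found in 9 and 19 cells. Thinned to 1800 UMIs per cell, the log2 ratio of *tnfrsf1a* was 0.05. *fybb*, an adaptor gene of leucocytes, had 18 and 43 UMIs (1.04, 0.22 to 1.92). *tfec*, a Mitf family gene, had 6 and 14 UMIs, and its interval (-0.46 to 2.68) held 0. *marco* had a log2 ratio of 0.73 (0.04 to 1.46) and *csf1ra* of 0.79 (-0.04 to 1.66). The chemokine gene *ccl34b.1* was lower in YM, at -1.28 (-2.53 to -0.13), with UMIs in 8 DMSO and 4 YM cells and none in any other kept cell, and with cells thinned at -0.36.

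**Figure D4:**
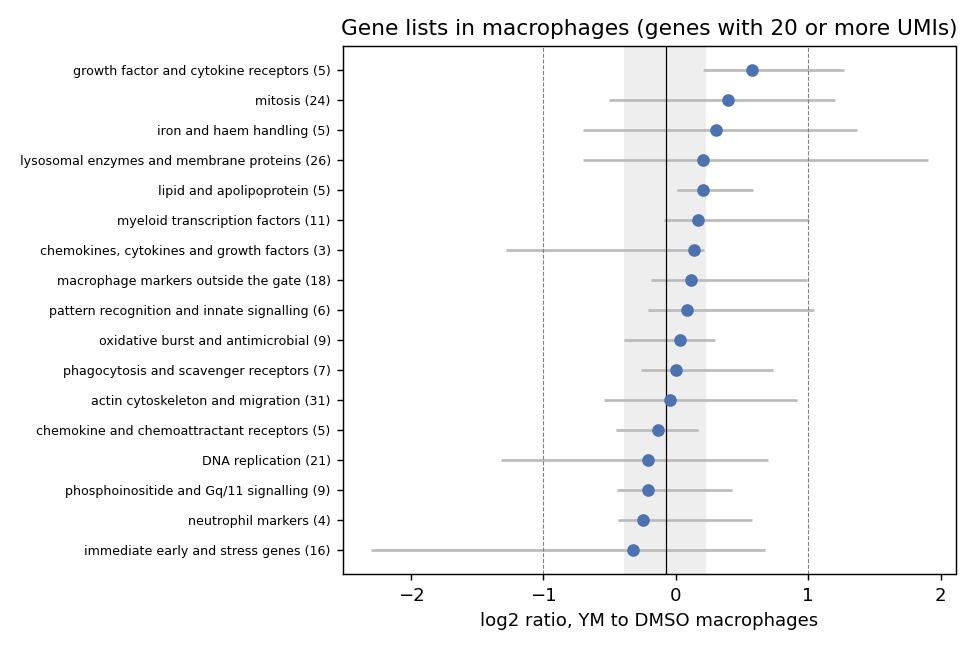
Points give the median log2 ratio of YM to DMSO macrophages for each gene list with at least 3 measured genes, other than the genes of the rule, with the number of genes measured in brackets, and lines span the lowest and highest gene. The solid line and grey band give the median (-0.08) and the middle of the distribution (-0.38 to 0.22) of all 2433 genes, and dashed lines mark 2-fold. Growth factor and cytokine receptors (0.58), mitosis (0.39) and iron and haem handling (0.30) lie above the band, and the other medians plotted lie within it.

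Genes of DNA replication and mitosis were also counted in macrophages. The DNA replication list summed to 3460 CPM in DMSO and 2706 CPM in YM macrophages, below the 4707 and 4655 CPM of all other kept cells, and the mitosis list to 4216 and 4408 CPM, below 8928 and 7634 CPM. Per cell, mitosis UMIs ran from 3 to 120 in DMSO, with a median of 22, and from 2 to 176 in YM, with a median of 15. After each cell was thinned to 1800 UMIs, 10 of 29 DMSO and 7 of 28 YM macrophages had at least 10 mitosis UMIs, against 25 and 16 unthinned, and 7 and 0 cells lay near that limit, at 8 to 11 UMIs.

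Of 21 replication genes measured, 2 were past 2-fold, both lower in YM, beside 5.01% of all genes, and with so few genes this is near that share. *rpa3*, a subunit gene of the single-strand binding complex, had 64 and 33 UMIs (-1.17, -1.82 to -0.54). *fen1*, a flap endonuclease gene, had 28 and 13 (-1.32, -2.39 to -0.32). With cells thinned to 1800 UMIs neither was past 2-fold, at -0.14 for *rpa3* and -0.53 for *fen1*. *pcna*, the sliding clamp gene, had 191 and 139 UMIs (-0.67, -0.997 to -0.35), whereas *mcm6*, of the replicative helicase, had 29 and 48 (0.51, -0.18 to 1.23). Of 24 mitosis genes, 1 was past 2-fold, higher in YM, beside 2.84% of all genes, and with so few genes this is near that share. It was *cdc20* with 6 and 16 UMIs (1.202, -0.23 to 2.84), or 0.64 with cells thinned. The median of the list was 0.39, or -0.23 with cells thinned. *top2a* had 40 UMIs in 10 DMSO cells and 74 in 8 YM cells (0.67, 0.10 to 1.27).

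Where both libraries gave 20 UMIs or more, the extreme ratios included further genes of chromatin and division. *nap1l1*, *rbbp4* and *hist1h4l* (ENSDARG00000115281), which encode a histone chaperone, a histone-binding protein and histone H4, had log2 ratios of -1.31, -1.16 and -1.26, and *prmt1*, an arginine methyltransferase gene, of -1.16. The H4 gene has many near-identical copies, so its count is uncertain. *aspm*, a spindle gene, stood at 1.05 and *ccng1*, a cyclin G gene, at 1.02. Thinned to 1800 UMIs per cell, *aspm* turned to -0.95, and *ccng1* (0.05), *nap1l1* (-0.43) and *rbbp4* (-0.63) were no longer past 2-fold. *prmt1* (-1.41) and the H4 gene (-1.82) stayed past it. Thinning was drawn once and leaves few UMIs of such genes, so these ratios carry more counting error, for which no interval was computed.

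The highest ratio of YM to DMSO where each library gave 20 UMIs or more belonged to *cst14b.2*, a cystatin gene, with 81 UMIs in DMSO and 456 in YM macrophages (340 and 1652 CPM), a log2 ratio of 2.28 (1.94 to 2.64). It was confined to some cells in both libraries, with 0 UMIs in 21 of 29 DMSO and 16 of 28 YM macrophages. The highest DMSO cells had 17, 16 and 15 UMIs, and the highest YM cells had 149, 104 and 49. *CABZ01058647.1*, which has no descriptive name, had 128 and 491 UMIs (1.73, 1.44 to 2.02), of which 1 YM cell held 272, the same cell that held 149 of *cst14b.2*. This was the YM cell with the marker sum of 4. With a marker minimum of 5, which leaves it out, the log2 ratio of *CABZ01058647.1* was 0.61 and that of *cst14b.2* was 1.75.

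Both genes were high in neutrophils, at 6389 and 9236 CPM for *cst14b.2* and 3023 and 3370 CPM for *CABZ01058647.1*. The cell itself had 0 *mpx* and 0 *lyz* UMIs and 7 UMIs of all neutrophil markers. A similar case in the other direction was *gsto2*, a glutathione transferase gene, with 60 and 26 UMIs (-1.42, -2.14 to -0.73). Here 1 DMSO cell held 32 of the 60, the cell with the only *mpx* UMI among macrophages, and neutrophils had 2726 and 3112 CPM. With *mpx* required to be 0, the log2 ratio of *gsto2* was -0.39. The part of neutrophil RNA in these 3 ratios was not tested.

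Macrophages differed among themselves most in a small number of genes. Among 543 genes with at least 100 UMIs, the dispersion (the variance over that given by counting alone, after scaling to each cell's UMIs) had a median of 1.37 in DMSO and 1.53 in YM, where 1 stands for counting noise. Of these genes 391 were above 1 in both libraries and 80 were above 2 in both. The most variable genes, picked after their values were seen, included *tppp*, with dispersions of 28.1 and 40.5. It had 0 to 60 UMIs per cell in DMSO and 0 to 138 in YM, with a median of 2 in both, and stood near 0.5 CPM in other kept cells. *hmox1a* (14.4 and 14.6) ranged from 0 to 32 and from 0 to 29 UMIs per cell, and the MFAP4 feature ENSDARG00000088745 (20.6 and 14.8) from 9 to 157 and from 2 to 159.

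*ccl34a.4* was also uneven (9.38 and 7.53), with UMIs in 24 of 29 DMSO and 23 of 28 YM cells. In YM, the 10 cells with at least 5 *cst14b.2* UMIs had 365 CPM of *ccl34a.4* (255 to 505), detected in 5 of them, and the other 18 cells had 1488 CPM (1314 to 1679), detected in all 18. In DMSO, the 6 cells with at least 5 *cst14b.2* UMIs had 980 CPM (734 to 1282) and the other 23 had 989 (850 to 1143). In DMSO, *mrc1b* stood at 240 CPM (128 to 411) in the cells with *cst14b.2* and at 402 CPM (316 to 505) in the others, and these intervals overlapped. In YM, *mrc1b* stood at 172 CPM (100 to 276) and 429 CPM (338 to 536), and these did not overlap. Nor did those of *mfap4* in YM, of the MFAP4 feature ENSDARG00000088745 in DMSO and of *CABZ01058647.1* in both libraries. Those of *havcr1*, *marco*, *csf1ra*, *irf8*, *mpeg1.1* and *lygl1* overlapped in both libraries. *mrc1b* varied among cells by more than counting (dispersions 2.09 and 3.15), as did *ccl34a.4*, so intervals of counting error are too narrow for them. This grouping was made after the values were seen and was not tested.

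**Figure D5:**
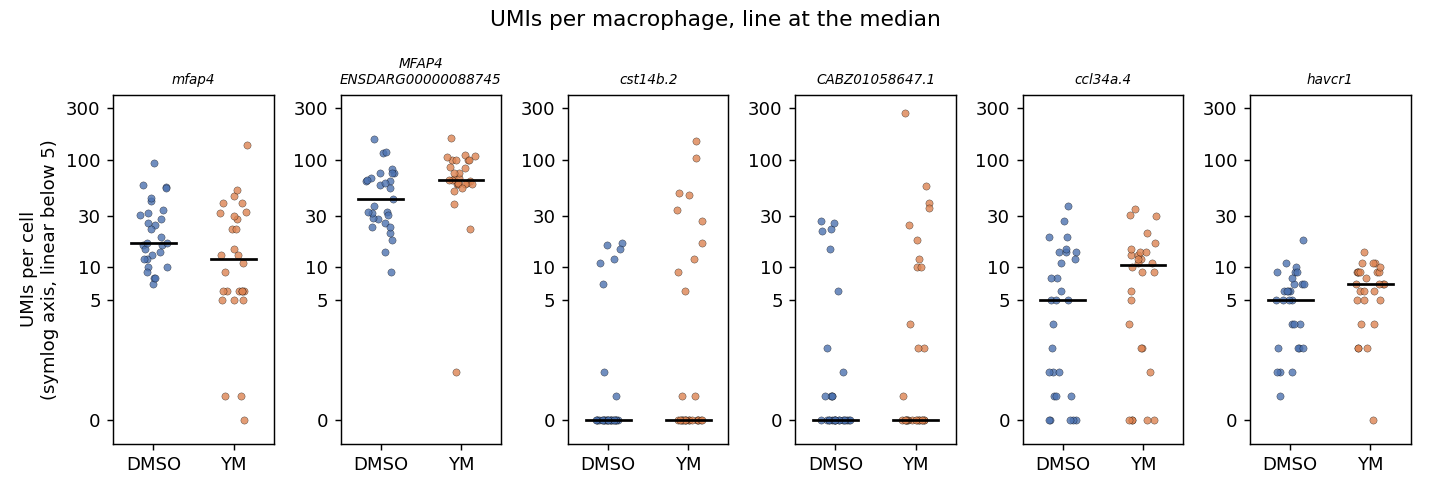
Each point is 1 macrophage and the line is the median, with UMIs per cell on the y axis (linear below 5, logarithmic above), for 6 genes in DMSO and YM. *havcr1* is found in nearly every cell, whereas *cst14b.2* and *CABZ01058647.1* have a median of 0 and a few cells that reach 149 and 272 UMIs in YM.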

How the data were processed

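scRNA-seq was measured in 1 DMSO and 1 YM library, grouped from their labels. The deposited values are unnormalized UMI counts, made by the authors with Cell Ranger on GRCz11 (5.0.1 in the methods and submitters' notes, 4 in the file headers), for 25434 features and 6794880 barcodes. The library totals were 25340682 and 33649382 UMIs. The stated limits on genes (from 200) and mitochondrial UMIs left 3701 and 4507 barcodes, each within 1 of the number given in the methods, and a minimum of 1800 UMIs left 3555 and 4376. No doublet caller was run.

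UMIs were summed per library over macrophages and divided by their total (CPM). Exact Poisson, binomial and conditional binomial 95% intervals were computed with scipy 1.17.1 in Python 3.11.15. Genes needed 20 UMIs over both libraries of macrophages, so shares against neutrophils leave out genes high in neutrophils alone. A gene was called at 2-fold between treatments, or at 4-fold against other cells in both libraries, and a 0 was replaced by 3 UMIs in ratios. No test was possible with 1 library per condition. The ratio and interval code was tested on simulated data. TMM factors came from edgeR 4.0.16 (R 4.3.3). The members and the 30 gene lists were chosen with earlier results of these data known.

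Named were the genes of the rule, the transgenes, up to 6 members per list with most UMIs, members with at most 3 UMIs, list members past 2-fold, the 10 leading genes against other cells and the 6 highest and 6 lowest ratios between treatments. Gq/11 alpha subunits are given as a sum. *mertka*, *myb*, *c1qb*, *c1qc* and genes called most variable were named after their values were seen. Promoter sequences were not analysed here. Gene neighbours came from RefSeq names.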

Additional observations from a re-analysis of the deposited data

How the results depend on the processing

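The 52 list medians and gene ratios gave 986 values under the alternatives, of which 955 kept their sign. Of the 986, 940 stayed within a limit taken from counting error. For a gene the limit was the interval of its ratio. For a list median it came from the width of the interval of the list's summed UMIs, which is not the error of a median. Several alternatives chose the same macrophages as the main rule, namely a lower marker minimum and no *lcp1* and *coro1a* condition. So did both other UMI minimums and a gene limit shared by both libraries. Their values repeated the main ones, so these counts overstate how stable the results are. A marker minimum of 5 and a marker sum without *lygl1* also gave the same values as each other. Thinning every cell to 1800 UMIs turned the sign of the medians of mitosis (-0.23), iron and haem handling (-0.03) and chemokine receptors (0.31) and took *tnfrsf1a* to 0.05. Of the 14 list members past 2-fold, 6 stayed so after thinning, 7 did not and 1 gave no value. Of the ratios past 2-fold, the log2 ratio of aspm turned sign, to -0.95, with every cell thinned to 1800 UMIs. The thinning was a single random draw, and no intervals were computed for thinned ratios, which rest on few UMIs for sparse genes. The 69 genes higher in YM and 122 genes lower in YM became 13 and 28 after thinning, which leaves fewer UMIs, 279 and 385 with at least 10 UMIs over both libraries and 10 and 16 with at least 50. The 533 genes higher in macrophages than in other kept cells became 807 and 285 with those minimums. The number and share of macrophages stayed within 1.5 times, or within the binomial interval, under every change of the rule and of the cell limits. TMM scaling moved the median log2 ratio of all genes from -0.08 to -0.01. Leaving out cells above 2 times the median UMIs removed 0 cells, so it gave no value. The alternatives that leave out the cell with most crest UMIs of each library, and that set the marker minimum at 7, were chosen after seeing the data. No paired analysis was possible because there is 1 library per condition. With 29 and 28 cells, levels below 12.6 and 10.9 CPM could not be told from 0.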
